A study of Aspergillus nidulans with 6 samples.

Results

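The 200 nuclear genes with the most RNA-seq reads in wild-type Aspergillus nidulans were described here, in mycelium grown for 1 day on glucose. A. nidulans is a filamentous fungus used as a laboratory model. Levels are given in CPM, the count of a feature per 1000000 counts of its library. The members are the 200 of 10720 rows with a nuclear AN gene number that had the highest mean CPM over the 3 WT libraries. The files hold 10983 features in all. WT levels chose the members, so those levels, their order and their spread are a description.

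The mcrA-deleted group was strain LO8158 and WT was strain LO1362, which carries mcrA. Each group had 3 libraries. The gene mcrA is known as a negative regulator of secondary metabolism. Both strains were grown from 1000000 spores in 150 ml of liquid glucose minimal medium at 37 °C for 1 day, and both cultures received uridine, uracil, pyridoxine and riboflavin. Directional libraries were made from polyadenylated RNA. Each genotype was 1 strain, so an effect of the deletion and of any further strain difference cannot be told apart. The labels do not say that replicates came from separate cultures, so the p-values rest on library-to-library spread alone, part of which may be technical.

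Totals ran between 3374534 and 4926520 counts in mcrA-deleted libraries and between 4739323 and 6051839 in WT libraries. The files pair no gene with mcrA, and AN8694 is its locus from background knowledge (chromosome III, 3100552 to 3102696, plus strand). AN8694 had 83.0, 85.7 and 61.8 CPM in mcrA-deleted libraries, against 142, 149 and 137 CPM in WT. It was lower in each library labelled mcrA-deleted but not absent (log2 fold change -1.06, SE 0.168, adjusted p = 0.00468, edgeR quasi-likelihood test with Benjamini-Hochberg adjustment). No source used here states which part of the locus was removed. The median member differed 1.13-fold to 1.27-fold between mcrA-deleted replicates. Among the WT libraries replicate 3 was the most distant: the median member differed 1.46-fold between WT replicates 1 and 3, 1.39-fold between replicates 2 and 3 and 1.08-fold between replicates 1 and 2. Levels in bulk RNA are shares of the reads, so fewer hyphae of a kind and less RNA per cell cannot be told apart.

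In growing hyphae the most abundant messages commonly encode enzymes of glycolysis, ribosomal proteins, chaperones, cytoskeletal and histone proteins and proteins of the cell wall. A. nidulans grown on nitrate makes nitrate and nitrite reductase, and glutamine synthetase builds the ammonium into glutamine. Hyphae extend at their tips, where wall polymers are made and remodelled by membrane-bound and secreted enzymes. Molecular chaperones fold new and heat-damaged proteins in the cytosol and mitochondria.

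Of the 200 members, 194 matched an entry of the RefSeq table and 47 had a symbol there (23.5%, against 7.27% of all nuclear rows). The other 153 are given by AN number, with no role. The median member feature was 1522 bp, with a range of 226 to 7239 bp, against 1682 bp over all nuclear rows and 1728 bp over WT ranks 201 to 400. Ranking by CPM per kilobase of feature kept 164 of the 200. For 27 members the feature overlapped another, by any length and on either strand, so reads over the shared stretch could belong to either.

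Member levels in WT spanned a 12.1-fold range, between 12575 CPM for AN8009 and 1037 CPM for the last member, with a median of 1392 CPM. The smallest count of any member in a WT library was 2940. The first member, AN8009 (chromosome II, 488023 to 489605, minus strand), had 9253, 11764 and 9587 CPM in mcrA-deleted libraries, against 11084, 11658 and 14982 CPM in WT. The groups overlapped, and AN8009 was first in rank in both genotypes. AN2530 (chromosome VII, 4244549 to 4245507, minus strand) had 6858, 6154 and 3689 CPM in mcrA-deleted libraries, against 7759, 9268 and 15825 CPM in WT. The groups did not overlap and WT replicate 3 was the highest library. The difference did not pass the test (log2 fold change -1.17, SE 0.414, adjusted p = 0.0695), and the value was -0.71 without WT replicate 3.

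The third row was gpdA (AN8041; chromosome II, 580162 to 581937, plus strand), the glycolytic enzyme glyceraldehyde-3-phosphate dehydrogenase. Its level was 7175, 7660 and 4851 CPM in mcrA-deleted libraries, against 9219, 9686 and 12692 CPM in WT. Its groups did not overlap, and the test was not passed (log2 fold change -0.86, SE 0.311, adjusted p = 0.0726). AN4888 followed with 8659, 11457 and 9964 CPM in mcrA-deleted libraries, against 6656, 8452 and 13549 CPM in WT. AN4218 had 8655, 7449 and 7313 CPM in mcrA-deleted libraries, against 10616, 8750 and 5360 CPM in WT. Both genes overlapped between genotypes. The WT ranges of the first 4 rows overlapped one another, so their order is not separated by the replicate spread.

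**Figure D1:**
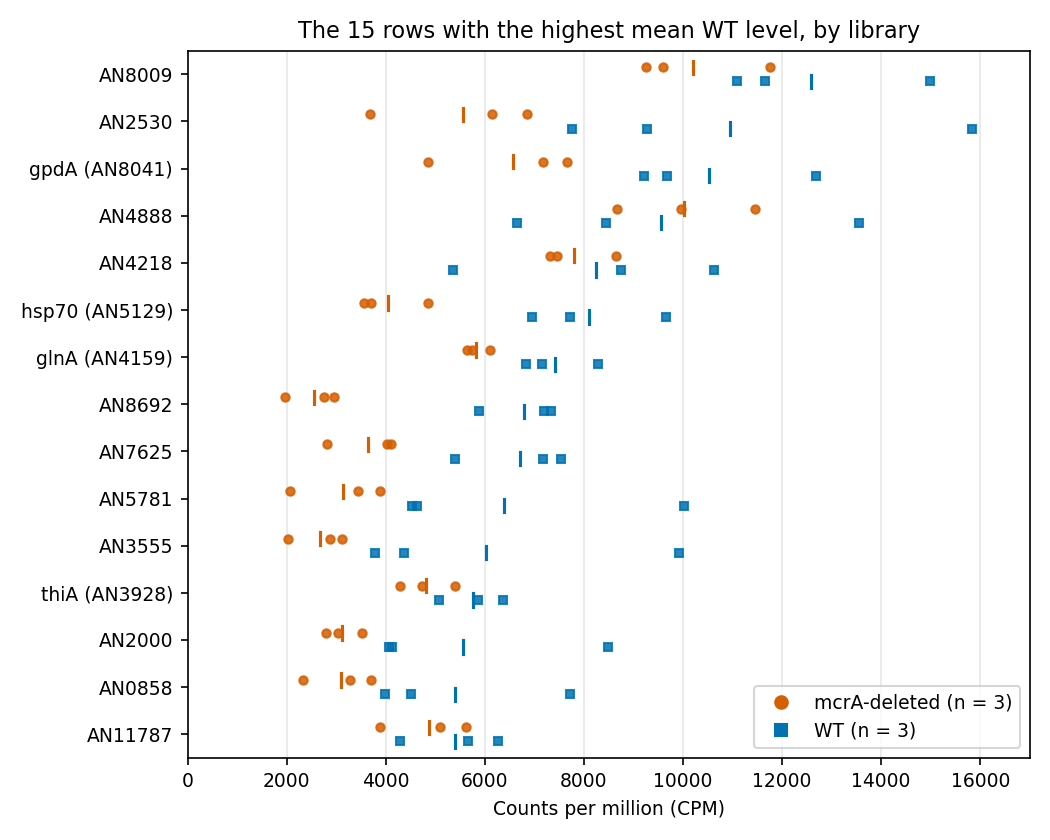
CPM of the 15 rows with the highest mean WT level, by library: circles are the 3 mcrA-deleted libraries, squares the 3 WT libraries and short vertical lines the group means. AN8009 reached 11764 CPM in the highest mcrA-deleted library and 14982 CPM in the highest WT library; AN8692 lay between 1960 and 2947 CPM in mcrA-deleted libraries and between 5873 and 7330 CPM in WT.

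Among the 15 highest rows, 3 passed the test, each with a lower level in mcrA-deleted libraries: hsp70, AN8692 and AN7625. Over all tested features 13.7% were lower and 16.1% higher. AN8692 (chromosome III, 3111804 to 3112756, plus strand) had 2758, 2947 and 1960 CPM in mcrA-deleted libraries, against 5873, 7188 and 7330 CPM in WT. Each mcrA-deleted library was under every WT library, and the gene went to rank 34 in mcrA-deleted libraries, against rank 8 in WT (log2 fold change -1.58, SE 0.268, adjusted p = 0.00587). AN7625 had 4099, 4032 and 2804 CPM in mcrA-deleted libraries, against 7180, 7540 and 5390 CPM in WT. Its groups did not overlap (log2 fold change -1.03, adjusted p = 0.0208), and the call was lost without WT replicate 1 (adjusted p = 0.0606), WT replicate 2 (0.0759) or mcrA-deleted replicate 2 (0.0698). AN5781, AN3555, AN2000 and AN0858 had their highest level in WT replicate 3, at 10018, 9918, 8485 and 7710 CPM, and none passed the test (adjusted p between 0.0571 and 0.0787). Without WT replicate 3 the log2 fold changes of AN5781, AN3555 and AN2000 were -0.64, -0.70 and -0.50, against -1.23, -1.38 and -1.04 with it, and that of AN0858 moved to -0.55. The thiazole synthesis gene thiA, of the thiamine pathway, was 12th in both genotypes (5402, 4732 and 4280 CPM in mcrA-deleted libraries, against 6360, 5862 and 5067 CPM in WT; log2 fold change -0.43, adjusted p = 0.169).

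Per kilobase of feature the order changed. The short row AN11787 (263 bp) came first, with a mean of 18521 CPM per kilobase in mcrA-deleted libraries and 20530 in WT, and AN11489 (226 bp), which overlaps it, came next with 16219 and 16745. AN2530 followed with 5805 CPM per kilobase in mcrA-deleted libraries and 11419 in WT. AN8009 had 6444 in mcrA-deleted libraries and 7944 in WT, and gpdA had 3695 in mcrA-deleted libraries and 5930 in WT. Rates of very short features depend on the annotated length. AN11489 starts at 1957797 and AN11787 ends at 1957802 on chromosome V, and only reads over that shared stretch cannot be split here.

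The 200 members held 35.9, 35.7 and 31.3% of all counts in mcrA-deleted libraries, against 42.4, 41.8 and 45.7% in WT. The means were 34.3 ± 2.6% in mcrA-deleted libraries and 43.3 ± 2.1% in WT (SD, n = 3 each), and the groups did not overlap. The choice of members raises the WT share. Each library's own 200 highest rows held 37.9, 38.5 and 36.1% of counts in mcrA-deleted libraries, against 42.8, 42.1 and 46.6% in WT. This share did not overlap between the groups either. The number of rows that together held 50% of counts was 381, 364 and 421 in mcrA-deleted libraries, against 288, 297 and 240 in WT. Each mcrA-deleted library thus needed more rows than any WT library. The 10 highest rows of a library held 6.99, 7.48 and 6.74% in mcrA-deleted libraries, against 7.96, 8.22 and 11.1% in WT.

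**Figure D2:**
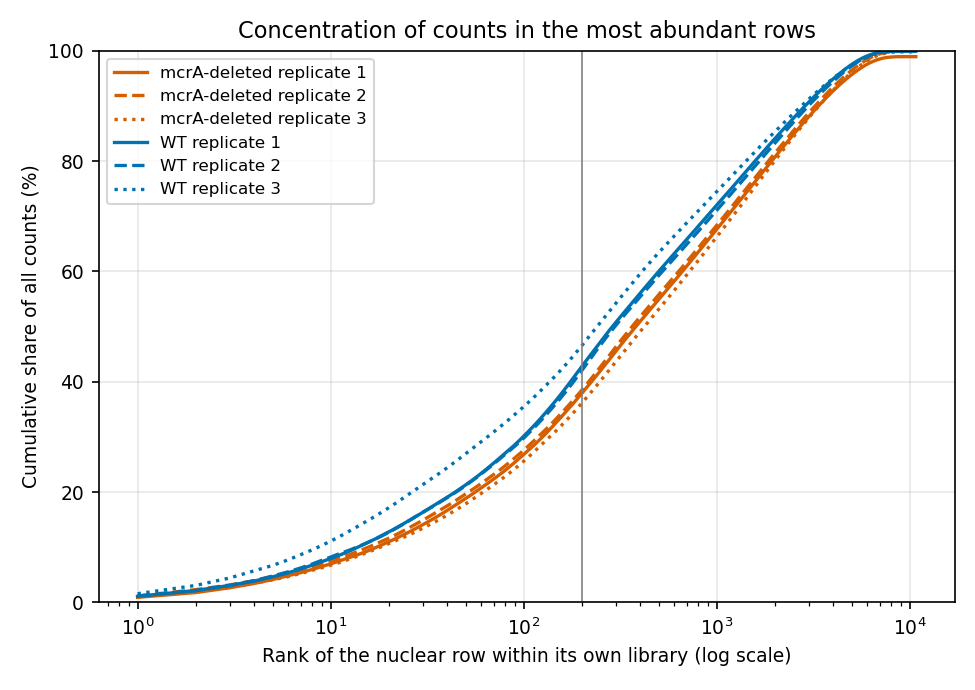
Cumulative share of all counts (%, vertical axis) against the rank of nuclear rows within each library (log scale), with 1 line per library and a vertical line at rank 200. At rank 200 the mcrA-deleted lines stood between 36.1 and 38.5% and the WT lines between 42.1 and 46.6%, with WT replicate 3 the highest.

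The median coefficient of variation of members was 13.5% over the 3 mcrA-deleted libraries and 20.4% over the 3 WT libraries. In WT it ran from 0.587 to 61.9%, and 23 members varied by less than 10%. It was 5.34% over WT replicates 1 and 2 alone, and 16.7% over WT for rows at WT ranks 201 to 400. The highest WT library was replicate 1 for 102 members, replicate 2 for 26 and replicate 3 for 72, and replicate 3 was lowest for 111. Of the 200 members, 147 stood among the 200 highest of each WT library. The steadiest members in WT were AN1993 (906, 951 and 676 CPM in mcrA-deleted libraries, against 1098, 1086 and 1089 CPM in WT), hsp60 and AN0734. The widest was AN2286, with 3859, 5553 and 4513 CPM in mcrA-deleted libraries, against 1982, 2958 and 6457 CPM in WT. AN6657, AN3163, AN3555 and AN4575 came next, with coefficients of variation of 61.5, 57.1, 56.2 and 51.7%. All 5 had their highest WT level in replicate 3.

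Just inside the limit of 200 were cit1, AN2731 and AN4762, at 1040, 1039 and 1037 CPM in WT. Just outside were AN5602, AN4803 and AN6499, at 1029, 1029 and 1028 CPM. These differences are below the WT spread, so the limit does not separate its neighbours.

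All 200 members passed the filter on low counts, as did 7852 features in all. Of the members, 41 were lower in mcrA-deleted libraries (20.5%), beside 13.7% of all tested features, and 3 were higher (1.5%), beside 16.1% of all tested features. The other 156 did not pass. In either direction, 29.8% of all tested features were called. The median log2 fold change over members was -0.46 and 184 lay below 0, while the median over all tested features was 0.00. The WT values in these fold changes are the ones that chose the members, so the counts describe the list and do not test it. When the 200 were chosen by all 6 libraries, 28 were lower and 9 higher, and when they were chosen by mcrA-deleted libraries, 17 were lower and 27 higher. With library size alone as the scaling, the median of all tested features moved to 0.17, with 1660 features higher and 639 lower in place of 1265 and 1078, and 33 members were lower and 7 higher with a member median of -0.29. Calls moved with single libraries: 15 members were lower without mcrA-deleted replicate 2, 22 without mcrA-deleted replicate 3, 25 without WT replicate 1, 23 without WT replicate 2, 30 without mcrA-deleted replicate 1 and 61 without WT replicate 3. The DESeq2 Wald test called 89 members lower and 5 higher. The shares of 13.7 and 16.1% over all tested features belong to the main fit. No such share is given here for DESeq2 or for the fits that left out a library. Those counts therefore show how calls moved, not an excess over all features. Higher members numbered 0 without WT replicate 1, WT replicate 2 or mcrA-deleted replicate 2, and 7 without WT replicate 3.

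Rows below the members also had more lower than higher calls. At WT ranks 201 to 400, 64 of 200 rows were lower and 9 were higher, with a median of -0.46, and at ranks 401 to 1000 these were 160 and 43 of 600, with a median of -0.26. Within the members, ranks 1 to 50 held 13 lower (26%) and 0 higher genes (median -0.63). Ranks 51 to 100 held 9 lower (18%) and 1 higher (median -0.43). Ranks 101 to 150 held 5 lower (10%) and 2 higher (median -0.40), and ranks 151 to 200 held 14 lower (28%) and 0 higher (median -0.48). Over all tested features 13.7% were lower and 16.1% higher, so the share of lower calls was uneven across the members. In 63 members (31.5%) the highest mcrA-deleted CPM was under the lowest WT CPM, beside 14.4% of all tested features. In 8 members (4%) the lowest mcrA-deleted CPM was over the highest WT CPM, beside 32.5% of all tested features. Of the 41 lower members, 26 fell by at least 1 on the log2 scale and 1, AN4049, by at least 2. Of the 44 called members, 14 kept the call whichever of the 6 libraries was dropped, and each of these was lower: AN8692, AN4190, AN1549, hsp60, AN10847, AN2238, AN2099, AN4049, AN4508, AN4817, trr1, wos2, AN8689 and AN0122.

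All 6 chaperone members were lower in mcrA-deleted libraries, with log2 fold changes between -1.45 and -1.06 and a median of -1.22, beside -0.46 over the 200. With library size alone as the scaling these lay between -1.24 and -0.87. The highest was hsp70 (AN5129; chromosome V, 1233544 to 1235894, plus strand), which binds unfolded protein in the cytosol. It had 4847, 3708 and 3557 CPM in mcrA-deleted libraries, against 7711, 6961 and 9648 CPM in WT. The groups did not overlap (4037 ± 705 CPM in mcrA-deleted libraries and 8107 ± 1387 CPM in WT, SD, n = 3 each; log2 fold change -1.19, SE 0.279, adjusted p = 0.0182). The feature overlaps AN12180. The partner chaperone hsp90 (AN8269) had 3512, 2699 and 2471 CPM in mcrA-deleted libraries, against 4793, 4407 and 6699 CPM in WT. It was lower in each mcrA-deleted library (log2 fold change -1.06, SE 0.296, adjusted p = 0.0331).

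The mitochondrial chaperonin hsp60 (AN6089; chromosome I, 1294382 to 1296786, plus strand) had 1034, 875 and 621 CPM in mcrA-deleted libraries, against 1888, 1893 and 1922 CPM in WT. Its WT libraries were within 0.961% of each other as a coefficient of variation, and each mcrA-deleted library was lower (log2 fold change -1.34, SE 0.244, adjusted p = 0.0074). It left the 200, at rank 221 in mcrA-deleted libraries against rank 59 in WT. The remaining members fell as well: hsp88, a large Hsp70 relative in Neurospora (-1.11, adjusted p = 0.0154), hsp78, a mitochondrial disaggregase in yeast (-1.45, adjusted p = 0.0233), and wos2, an Hsp90 co-chaperone in fission yeast (-1.24, adjusted p = 0.01). The calls of hsp70, hsp90, hsp88 and hsp78 were lost without mcrA-deleted replicate 2 (adjusted p = 0.0888, 0.122, 0.062 and 0.0741). Those of hsp70, hsp90 and hsp78 were lost without mcrA-deleted replicate 3 (0.0555, 0.0952 and 0.0784), and that of hsp90 also without WT replicate 1 (0.0557) or 2 (0.0539). Together the 6 took 1.17, 0.945 and 0.835% of counts in mcrA-deleted libraries, against 1.83, 1.68 and 2.39% in WT. Over the whole chaperone list, members and others, 9 of 10 genes were lower and 0 higher, beside 13.7 and 16.1% of all tested features, and the one not called was bipA, the chaperone of the endoplasmic reticulum (log2 fold change 0.16).

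All 7 carbon members had log2 fold changes below 0, with a median of -0.80. In the edgeR test 3 were lower (42.9%, beside 13.7% of all tested features), 0 were higher and 4 did not pass. At an unadjusted p under 0.05, and by DESeq2, 5 were lower and 0 higher. The glycolytic kinase pgkA (AN1246) had 2456, 2644 and 2192 CPM in mcrA-deleted libraries, against 3495, 3624 and 4088 CPM in WT. Its groups did not overlap (log2 fold change -0.80, SE 0.215, adjusted p = 0.0293), and the call was lost without any one library other than WT replicate 3 (adjusted p between 0.0573 and 0.0848). The gene aspf22 (AN5746), whose Aspergillus fumigatus namesake is the glycolytic enzyme enolase, had 2432, 2282 and 1833 CPM in mcrA-deleted libraries, against 3897, 3659 and 3212 CPM in WT. The groups did not overlap (log2 fold change -0.88, SE 0.208, adjusted p = 0.0187). Citrate synthase, cit1 (AN8275), the entry enzyme of the citric acid cycle, had 730, 582 and 405 CPM in mcrA-deleted libraries, against 1140, 1019 and 960 CPM in WT. It fell by 1.02 on the log2 scale (adjusted p = 0.0208). Leaving out WT replicate 1, WT replicate 2 or mcrA-deleted replicate 2 ended the calls of aspf22 (0.0594, 0.0614 and 0.072) and cit1 (0.056, 0.0547 and 0.0698).

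The other carbon members did not pass: gpdA as above, the transketolase tktA (-0.55), the cytochrome oxidase subunit cox5b (-0.59) and aconitase, acoA (-0.38). The 7 together took 1.55 ± 0.274% of counts in mcrA-deleted libraries and 2.37 ± 0.0907% in WT (SD, n = 3 each). Over the whole carbon list 5 of 14 genes were lower (35.7%) and 0 higher, beside 13.7 and 16.1% of all tested features.

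The reductases of nitrate assimilation stayed near their WT ranks; the labels do not name the nitrogen source of the medium. Nitrite reductase, niiA (AN1007; chromosome VIII, 1818281 to 1822109, minus strand), had 5727, 4623 and 4249 CPM in mcrA-deleted libraries, against 5386, 4182 and 5017 CPM in WT. The groups overlapped (log2 fold change -0.17, adjusted p = 0.619, and 0.00 with library size alone), and niiA was at rank 11 in mcrA-deleted libraries and rank 18 in WT. Nitrate reductase, niaD (AN1006), had 1493, 980 and 1024 CPM in mcrA-deleted libraries, against 1434, 1186 and 1061 CPM in WT, also overlapping (log2 fold change -0.24, adjusted p = 0.459). These genes are neighbours, transcribed away from each other with 1230 bp between the features. The nitrate transporter gene crnA (AN1008), which is no member, had 279, 109 and 170 CPM in mcrA-deleted libraries, against 646, 453 and 417 CPM in WT, and was lower (log2 fold change -1.61, adjusted p = 0.0138), a call lost without mcrA-deleted replicate 3 (0.0525, at -1.52). Without mcrA-deleted replicate 1 the value was -2.06. Glutamine synthetase, glnA (AN4159), had 5648, 6100 and 5739 CPM in mcrA-deleted libraries, against 7155, 6823 and 8282 CPM in WT. Its groups did not overlap and the test was not passed (log2 fold change -0.53, SE 0.231, adjusted p = 0.121). Of these 3 nitrogen members edgeR called 0, also at an unadjusted p under 0.05, and DESeq2 called 1 lower. Over all tested features edgeR called 29.8% in either direction, and a list of 3 is too short to be set apart from that share.

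Translation genes gave 0 calls among 11 members in the edgeR test, beside 13.7% lower and 16.1% higher over all tested features. At an unadjusted p under 0.05, 2 of the 11 were lower, and DESeq2 called 1 of the 11 lower. Their log2 fold changes ran from -0.57 for aspf8, named after a ribosomal P-protein allergen of A. fumigatus, to -0.23 for rps0, with a median of -0.35. All 11 lay below 0 with the trimmed-mean scaling and also with library size alone, where the median was -0.19. The highest was rps1, a protein of the small ribosomal subunit, with 1967, 1779 and 1585 CPM in mcrA-deleted libraries, against 2326, 2445 and 1507 CPM in WT. Its lowest library was WT replicate 3, so the groups overlapped (log2 fold change -0.39, adjusted p = 0.205). The large-subunit genes rpl16a and rpL3 had log2 fold changes of -0.33 and -0.31. Without WT replicate 3, 1 of the 11 was lower. The 11 took 1.69, 1.48 and 1.28% of counts in mcrA-deleted libraries, against 1.98, 1.93 and 1.28% in WT.

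Cell wall members moved both ways: 1 of 7 rose (14.3%, beside 16.1% of all tested features), 2 fell (28.6%, beside 13.7%) and 4 did not pass. The gene gel1 (AN7657; chromosome IV, 2286374 to 2288477, plus strand), a glucanosyltransferase that elongates beta-1,3-glucan in A. fumigatus, had 2114, 2264 and 2302 CPM in mcrA-deleted libraries, against 1067, 1242 and 1321 CPM in WT. All mcrA-deleted libraries were above all WT libraries (log2 fold change 0.70, SE 0.19, adjusted p = 0.0303). The call held in 1 of 6 fits that left out a library, the fit without WT replicate 3, and the adjusted p in the other 5 was between 0.0636 and 0.116. A second glucanosyltransferase gene, bgt2 (AN7950), had 3904, 5079 and 5939 CPM in mcrA-deleted libraries, against 1900, 2484 and 2893 CPM in WT. Its groups did not overlap and it stood at rank 9 in mcrA-deleted libraries against rank 43 in WT, but it missed the threshold (log2 fold change 0.84, SE 0.269, adjusted p = 0.0508).

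Of the wall genes that fell, btgE (AN1551), a predicted glucan-modifying enzyme of the wall, had 1476, 1168 and 923 CPM in mcrA-deleted libraries, against 2783, 2574 and 1776 CPM in WT. The groups did not overlap (log2 fold change -1.15, SE 0.252, adjusted p = 0.0142), and the call was lost without WT replicate 2 (0.0519) or mcrA-deleted replicate 2 (0.0612). The gene sun1 (AN6697) fell by 0.78 on the log2 scale (adjusted p = 0.0312), a call lost without WT replicate 1 (0.0884), WT replicate 2 (0.0792), mcrA-deleted replicate 2 (0.0884) or mcrA-deleted replicate 3 (0.0656). The hexosamine synthesis gene gfa1 (AN10709), which starts the supply of chitin precursor, had 1353, 1635 and 2041 CPM in mcrA-deleted libraries, against 1047, 1140 and 1078 CPM in WT, and did not pass (log2 fold change 0.44, adjusted p = 0.119). The 7 took 1.28, 1.42 and 1.47% of counts in mcrA-deleted libraries, against 1.17, 1.21 and 1.18% in WT. Over the whole wall list, 8 of 19 tested genes were higher (42.1%, beside 16.1% of all tested features) and 4 lower (21.1%, beside 13.7%), with a median of 0.41.

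**Figure D3:**
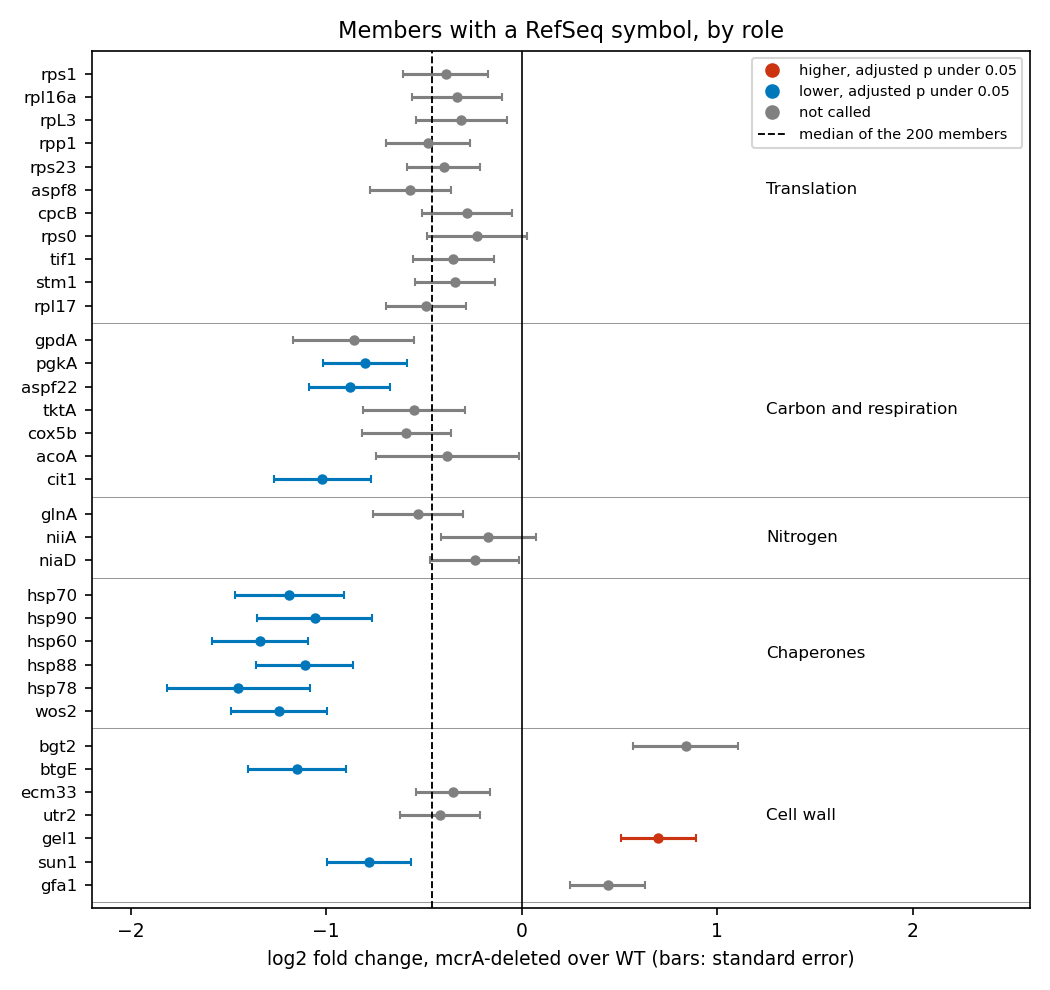
Log2 fold change (mcrA-deleted over WT, horizontal axis) of the 34 members with a RefSeq symbol in 1 of 5 roles. Points are edgeR estimates, bars their standard errors, colours the call at an adjusted p under 0.05, and the dashed line the median of the 200 members (-0.46). The 6 chaperones lie between -1.45 and -1.06, and the 11 translation genes between -0.57 and -0.23.

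Outside these roles 13 members had a symbol, of which 4 were lower, 1 was higher and 8 did not pass. Over all tested features 13.7% were lower and 16.1% higher. The thioredoxin reductase trr1 (AN3581) had 674, 641 and 382 CPM in mcrA-deleted libraries, against 1352, 1122 and 1038 CPM in WT, with no overlap (log2 fold change -1.21, SE 0.263, adjusted p = 0.0138). The gene hem13 (AN5130), coproporphyrinogen oxidase of haem synthesis in yeast, was lower (log2 fold change -1.19, adjusted p = 0.0384), but not when WT replicate 1 (adjusted p = 0.0631) or mcrA-deleted replicate 1 (0.0892), 2 (0.101) or 3 (0.11) was dropped. Its level was 995, 1058 and 953 CPM in mcrA-deleted libraries, against 1849, 1247 and 2872 CPM in WT, and without WT replicate 3, the highest, the log2 fold change was -0.74. The genes fhpA (AN7169; -0.81, adjusted p = 0.0183) and hel10 (AN4252; -0.89, adjusted p = 0.0294) were lower too; each was called in 2 of the 6 fits that left out a library, and the adjusted p in the other fits was between 0.0543 and 0.0646 for fhpA and between 0.0632 and 0.0909 for hel10. Actin (act1), histone H3 (hhtA) and the 14-3-3 protein artA did not pass, at -0.21, -0.08 and -0.08. The histone H3 gene had 2413, 2266 and 2401 CPM in mcrA-deleted libraries, against 2015, 2220 and 2357 CPM in WT. Superoxide dismutase, sod1, did not pass either (-0.40, adjusted p = 0.0998).

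Besides gel1, the members that rose were AN9450 and hexA. AN9450 had 2848, 3541 and 3953 CPM in mcrA-deleted libraries, against 979, 1249 and 1639 CPM in WT. All mcrA-deleted libraries were above WT, and the gene stood at rank 20 in mcrA-deleted libraries against rank 130 in WT (log2 fold change 1.22, SE 0.276, adjusted p = 0.0159). The gene hexA (AN4695; chromosome III, 1289523 to 1291050, plus strand) encodes the core protein of the Woronin body, the organelle that plugs septal pores of damaged hyphae. It had 3404, 3219 and 3532 CPM in mcrA-deleted libraries, against 1623, 1932 and 1629 CPM in WT. The groups were far apart for their spread, at 3385 ± 158 CPM in mcrA-deleted libraries and 1728 ± 177 CPM in WT (SD, n = 3 each; log2 fold change 0.80, SE 0.176, adjusted p = 0.0146). Without WT replicate 1, WT replicate 2 or mcrA-deleted replicate 2, AN9450 (adjusted p = 0.0501, 0.0719 and 0.0592) and hexA (0.0658, 0.0613 and 0.0598) were not called. AN4575 had 7711, 8455 and 5846 CPM in mcrA-deleted libraries, against 2090, 2078 and 4747 CPM in WT. Its groups did not overlap and it did not pass (log2 fold change 1.10, adjusted p = 0.0896), whereas without WT replicate 3 it was higher (1.72, adjusted p = 0.0034).

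The deepest fall was that of AN4049, which had 306, 166 and 81.7 CPM in mcrA-deleted libraries, against 1023, 1278 and 1273 CPM in WT. Every mcrA-deleted library was far below WT, and the gene dropped to rank 1030 in mcrA-deleted libraries, against rank 150 in WT (log2 fold change -2.85, SE 0.474, adjusted p = 0.00553). The value was -3.45 without mcrA-deleted replicate 1, and the feature overlaps AN4048. AN4508 had 433, 425 and 250 CPM in mcrA-deleted libraries, against 1069, 1011 and 1484 CPM in WT (log2 fold change -1.87, adjusted p = 0.00579). AN2238, AN4817, AN10847 and AN0122 fell with log2 fold changes of -1.86, -1.76, -1.70 and -1.67. AN8689, with 521, 436 and 349 CPM in mcrA-deleted libraries against 1219, 862 and 1198 CPM in WT, fell by 1.51 (adjusted p = 0.00585), and AN1549 fell by 1.48 (adjusted p = 0.016). These 8 did not overlap between groups and kept their calls in each fit that left out a library. AN0913 fell by 1.55 (adjusted p = 0.0325), a call that dropping WT replicate 2 (0.0558) or mcrA-deleted replicate 1 (0.0691), 2 (0.0616) or 3 (0.0887) ended, and without WT replicate 3 the value was -1.01.

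By mean CPM, 159 of the 200 members stayed among the 200 highest nuclear rows of the mcrA-deleted libraries and 41 left. Of the first 10, 6 stayed in the first 10, of the first 50, 39 in the first 50, and of the first 100, 77 in the first 100. A shift of at most 20 ranks was seen for 100 members, and 6 members dropped below rank 400. Of the 41 that left, 29 came from the last 50 ranks and 24 were called lower, and 17 further members were called lower but stayed. Over all tested features 13.7% were lower, but the 41 were chosen by a lower rank in mcrA-deleted libraries than in WT. That choice favours lower calls, so the count of 24 is a description. The replicates set a scale for this turnover. Pairs of mcrA-deleted libraries shared 163 to 178 of their own 200 highest rows, pairs of WT libraries 156 to 184, and pairs across genotypes 139 to 172. mcrA-deleted replicate 1 shared 172 with WT replicate 1, more than WT replicate 3 did, at 156. mcrA-deleted replicate 3 shared 139 to 142 with WT libraries, fewer than any WT pair. When 200 rows were chosen without WT replicate 3, 174, 161 and 140 of them were among the 200 of mcrA-deleted replicates 1, 2 and 3, against 157 for the left-out WT library.

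**Figure D4:**
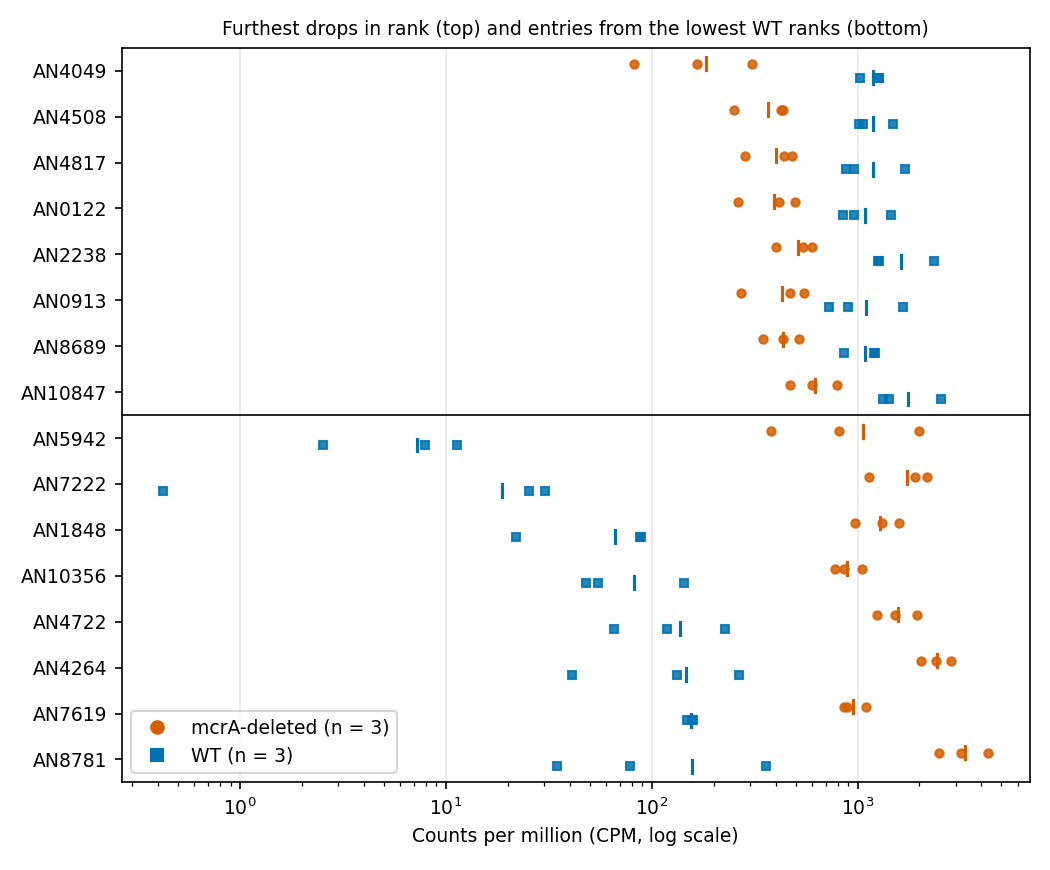
CPM (log scale, horizontal axis) of the 8 members that dropped furthest in rank (top) and of the 8 rows that entered the mcrA-deleted 200 from the lowest WT ranks (bottom). Circles are mcrA-deleted libraries, squares WT libraries and short lines group means. AN4049 lay at 81.7 to 306 CPM in mcrA-deleted libraries and 1023 to 1278 CPM in WT; AN5942 lay at 379 to 1991 CPM in mcrA-deleted libraries and 2.53 to 11.3 CPM in WT.

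The places of the 41 that left were taken by 41 rows, of which 24 were called higher, 17 were not called and 0 were lower; 23 came from WT ranks 201 to 400. Over all tested features 16.1% were higher and 13.7% lower, but these rows were chosen by a higher rank in mcrA-deleted libraries than in WT, which fixes the direction, so the count is a description. AN5942 came from furthest down, with 379, 816 and 1991 CPM in mcrA-deleted libraries, against 2.53, 7.93 and 11.3 CPM in WT. It stood at rank 151 in mcrA-deleted libraries against rank 6518 in WT (log2 fold change 6.97, SE 0.818, adjusted p = 0.00193). AN7222 had 1907, 1136 and 2182 CPM in mcrA-deleted libraries, against 0.422, 25.4 and 30.4 CPM in WT (log2 fold change 6.32, adjusted p = 0.00553). Neither gene has a symbol in the table. AN8781 reached rank 23 in mcrA-deleted libraries against rank 1082 in WT, with 2482, 3183 and 4327 CPM in mcrA-deleted libraries and 34.8, 78.5 and 360 CPM in WT. It was higher (log2 fold change 4.14, adjusted p = 0.0136), a call lost without WT replicate 2 (0.0518). AN4264 stood at rank 36 in mcrA-deleted libraries against 1169 in WT (log2 fold change 3.83), AN4722 at 69 against 1242 (3.29), AN1848 at 106 against 2443 (4.09), AN7619 at 180 against 1107 (2.44) and AN10356 at 199 against 2008 (3.22). All 5 were called and kept the call in every fit that left out a library, and AN4264 and AN4722 overlap another feature. Single libraries set some of these sizes: without WT replicate 3 the log2 fold changes were 6.93 for AN7222, 5.76 for AN8781, 4.71 for AN4264, 3.98 for AN4722 and 4.01 for AN10356, and without mcrA-deleted replicate 3 that of AN5942 was 6.20.

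Levels of markers of other states of the fungus were read beside these ranks. The summed level of 4 loci listed as markers of sexual structures was 1144, 1822 and 1635 CPM in mcrA-deleted libraries, against 105, 216 and 141 CPM in WT. AN1848, which also entered the 200, made up most of it in mcrA-deleted libraries, and 1 of the 4 (AN7349) was at 0 in all 6 libraries. The other loci, nsdD (AN3152) and AN7388, were called higher too (log2 fold changes 0.99 and 3.49, edgeR adjusted p = 0.0298 and 0.00658). AN7388 had 23.7, 42.2 and 113 CPM in mcrA-deleted libraries, against 3.59, 7.27 and 2.92 CPM in WT. A set of 7 conidiation markers summed to 27, 29.2 and 48.2 CPM in mcrA-deleted libraries, against 20.3, 17 and 22.3 CPM in WT, with 0 to 2 of them at 0 in a library. Within this set brlA (AN0973) was higher (log2 fold change 4.24, edgeR adjusted p = 0.00409). It had 12, 28 and 56 counts in mcrA-deleted libraries, against 1, 2 and 2 in WT, so this value rests on few counts. The gene pksP (AN8209) was also higher (1.27, adjusted p = 0.0394), with 31, 24 and 37 counts in mcrA-deleted libraries against 18, 13 and 11 in WT. The marker yA (AN6635) had 6.82, 9.34 and 13.8 CPM in mcrA-deleted libraries, against 13.5, 10.6 and 14.6 CPM in WT, and was not called (-0.55, adjusted p = 0.2). A set of 3 autolysis markers summed to 167, 193 and 208 CPM in mcrA-deleted libraries, against 148, 159 and 194 CPM in WT, overlapping between the groups, and edgeR called 0 of these 3. The part of other states in the changes of rank was not tested.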

How the data were processed

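The authors deposited raw counts per annotated feature, 1 table per library, with no normalization, per the file headers. CASAVA and HISAT (version 1) were used, per the submitters' processing notes. No source used here gives the counting tool, the strand setting, the rule for multiply aligned reads or the annotation version. Reads over the stretch that overlapping features share therefore cannot be split. Coordinates are those of the files. Symbols come from the RefSeq table of assembly ASM1142v1, used for names only (10037 features matched, 779 with a symbol).

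The members and the gene lists were chosen with earlier results of these data known. Role lists were written as symbols; the named genes are the 15 highest members, the called members of largest rise and fall, the rows at the limit, the extremes of WT spread, the furthest moves in rank and up to 4 members per role, and others named were chosen after their values were seen. Levels are CPM, counts per 1000000, on the total of the count column. Counts of all 6 libraries were tested with edgeR 4.0.16 in R 4.3.3 (trimmed-mean scaling, factors 0.8612 to 1.108; filterByExpr, minimum count 10; quasi-likelihood test, genotype as the only term, two-sided, Benjamini-Hochberg adjustment over 7852 features, 3131 left out); "called", "higher", "lower", "rose" and "fell" mean an adjusted p under 0.05. Fold changes are log2, mcrA-deleted over WT. The scripts were checked on simulated counts. Replicate pairs differed by 10.4 to 56.9 times sampling noise (chi-square per degree of freedom), so none was treated as a repeat. DESeq2 1.42.0, other scalings, filters and choices of members, and leaving out each library were alternatives. No per-sample column was left unmapped (0 columns). No table of sequences was used here.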

Additional observations from a re-analysis of the deposited data

How the results depend on the processing

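With main counts of 3 higher and 41 lower members, the count of higher members was 7 with library size alone, 5 with the DESeq2 Wald test, 9 and 27 when the 200 were chosen by all 6 libraries or by mcrA-deleted libraries, 1 for the 100 and 12 for the 400 highest, and 0 to 7 with a library left out. The count of lower members was 68 with the replicate block, 89 with the DESeq2 Wald test, 17 for the 200 of mcrA-deleted libraries, 22 for the 100 and 105 for the 400 highest, and 15 to 61 with a library left out. The cause of these differences was not tested, apart from the sizes of the lists. Whether replicate numbers pair the libraries was not settled. Correlations of same-numbered deviations were 0.263, -0.0757 and 0.168, against -0.264 to 0.129 between libraries of different number.

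By role, with main counts in the report, lower chaperones numbered 2 to 6 with a library left out. Lower carbon members numbered 5 with the DESeq2 Wald test and 0 to 4 with a library left out. Lower translation members numbered 3 with the replicate block, 1 with the DESeq2 Wald test and 0 to 1 with a library left out, and lower nitrogen members 1 with the DESeq2 Wald test. Higher wall members numbered 3 with library size alone, 2 with a mean count of at least 50, the replicate block or the DESeq2 Wald test, and 0 to 2 with a library left out. Lower wall members numbered 1 with library size alone and 0 to 2 with a library left out.

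With TMM-scaled library sizes the members' share of counts was 32.3% in mcrA-deleted libraries and 46.2% in WT; with a library left out it was 33.5 to 35.8% in mcrA-deleted libraries and 42.3 to 44.1% in WT, the number of members kept 151 to 168, and the median WT variation 5.34 to 26.7%. Of 819 values recomputed for 63 named genes, 756 kept their side of the threshold, 42 lost a call, 21 gained one and 0 changed direction as called values. Values that were not called could change sign: AN4888 had a log2 fold change of -0.13 in the main fit and 0.30 without WT replicate 3. With 3 libraries a group, differences near the replicate spread cannot be resolved.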

Other observations

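AN8692 and AN8689, which fell and kept their calls in every fit that left out a library, lie 9.11 and 15.6 kb from AN8694, the locus taken as mcrA; this was noticed after their values were seen. Within 25 kb of AN8694 there were 18 nuclear rows, of which 16 were tested and 2 are members. The median log2 fold change was -0.05. Of the 16 tested, 4 were lower and 3 higher, beside 13.7% lower and 16.1% higher over all tested features. AN8690 and AN8698 were the other lower rows, at -0.87 and -0.52.

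Of the 200 members, 24 stood in 12 pairs of directly adjacent rows, 5 of them divergent, 6 in tandem and 1 convergent, against 9 pairs among WT ranks 201 to 400. AN0734 and the histone H3 gene hhtA are divergent neighbours 619 bp apart, with log2 fold changes of -0.21 and -0.08, and artA and AN4500 are divergent neighbours 859 bp apart, with -0.08 and -0.50. Members made up 0.996% of the rows of chromosome IV and 2.6% of those of chromosome III, the lowest and highest shares. The other chromosomes lay between 1.35% (chromosome V) and 2.3% (chromosome I), and differences between chromosomes were not tested.

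Rows with a symbol that entered the 200 of mcrA-deleted libraries included esdC (AN9121), a gene of early sexual development, with 1506, 1549 and 1537 CPM in mcrA-deleted libraries, against 80.6, 155 and 264 CPM in WT (log2 fold change 2.99, edgeR adjusted p = 0.00386, and 3.60 without WT replicate 3). The developmental regulator stuA (AN5836, overlapping AN11491) had 955, 985 and 1398 CPM in mcrA-deleted libraries, against 211, 270 and 209 CPM in WT (2.10, adjusted p = 0.000941). The catalase gene cat1 (AN9339) had 3253, 4242 and 2651 CPM in mcrA-deleted libraries, against 768, 1002 and 692 CPM in WT (1.89, adjusted p = 0.00271). Mitochondrial features took 1.06, 0.0923 and 0.143% of counts in mcrA-deleted libraries, against 0.0661, 0.0593 and 0.159% in WT.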
